A study of Mus musculus with 6 samples.

Results

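The 38 genes described here encode soluble hydrolases and membrane proteins of the lysosome, together with the transcription factor Tfeb and the lysosomal growth factor precursor progranulin (Grn). They come from a set list of lysosome genes and were found by symbol, all 38 of 38 among the 17091 genes of the deposited table. The tissue was the cochlear lateral wall of the inbred mouse strain CBA/CaJ, which holds the stria vascularis and the spiral ligament. The animals were 3 old mice (2.5 years) and 3 young adult mice (2 months), with no transgene or treatment named for either group, and each library pooled the 2 cochleas of a mouse. The design compares the age groups.

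Lysosomes degrade proteins, glycans and lipids that arrive by endocytosis, phagocytosis and autophagy. Most of their soluble enzymes are tagged with mannose 6-phosphate and delivered by receptors, and the proton pump keeps the lumen acid enough for them to work. Inherited loss of a single enzyme causes a storage disease, and several of these, among them the mucopolysaccharidoses, include hearing loss. Macrophages are rich in lysosomes, so in a bulk tissue sample a lysosome transcript can come from resident cells, from macrophages or from both. In such samples a change in the number of cells of a type and a change in RNA per cell cannot be told apart.

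Between 37055355 and 39103398 reads per library were recovered from the deposited values, so the largest library was 1.06 times the size of the smallest. No member had fewer than 586 recovered reads in any library, and all 38 passed a filter of a mean of 10. The source label of all 6 libraries reads auditory nerve cells, at odds with the titles and the tissue given, which are of lateral wall. Lateral wall markers were abundant. The 9 strial markers summed to 485752 to 665116 normalised read counts in old and 614690 to 640402 in young libraries, and the 7 ligament markers to 510576 to 1060062 in old and 1140515 to 1289999 in young libraries. The ligament sums did not overlap. All 7 ligament markers had log2 fold changes below 0, with a median of -0.52, and 1 was called lower by the limma test given below. Of the 9 strial markers, 7 were below 0, with a median of -0.09, and 1 was called lower and 0 higher. Old replicate 3 stood apart by Xist, the RNA of the inactive X chromosome, with 45.2 normalised read counts against 24382 to 29162 in the other 5 libraries. Calls of the 38 genes that depend on it are marked, while the marker lists are not given without it.

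In old lateral wall, 3 of the 38 lysosome genes were higher than in young and the other 35 did not pass the test. Ctsd, Man2b1 and Lipa, which encode an aspartic protease, an alpha-mannosidase and an acid lipase, rose by about the same factor. Their folds in old over young, from the log2(value + 1) scale, were 1.46, 1.53 and 1.49. The test was limma with Benjamini-Hochberg adjustment over all genes and a threshold of 0.05. It called 3 of 38 members, 3 higher and 0 lower, where it called 5.25% of all genes, 2.71% higher and 2.55% lower. At an unadjusted p under 0.05, 6 members were higher and 2 lower, where 1842 of all 17091 genes were higher and 1805 lower. On recovered reads, edgeR called the same 3 higher and 0 lower, where it called 5.74% of genes, 3.20% higher and 2.54% lower. DESeq2 called 5 members higher, adding Ctsc and Cd63, and 1 lower, Npc1, where it called 10.9% of genes, 5.82% higher and 5.03% lower. All 3 calls were lost when the replicate number was a block or when limma was run without its variance trend. The 38 members had a median log2 fold change of -0.01, old minus young, and all genes had a median of -0.00097.

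**Figure D1:**
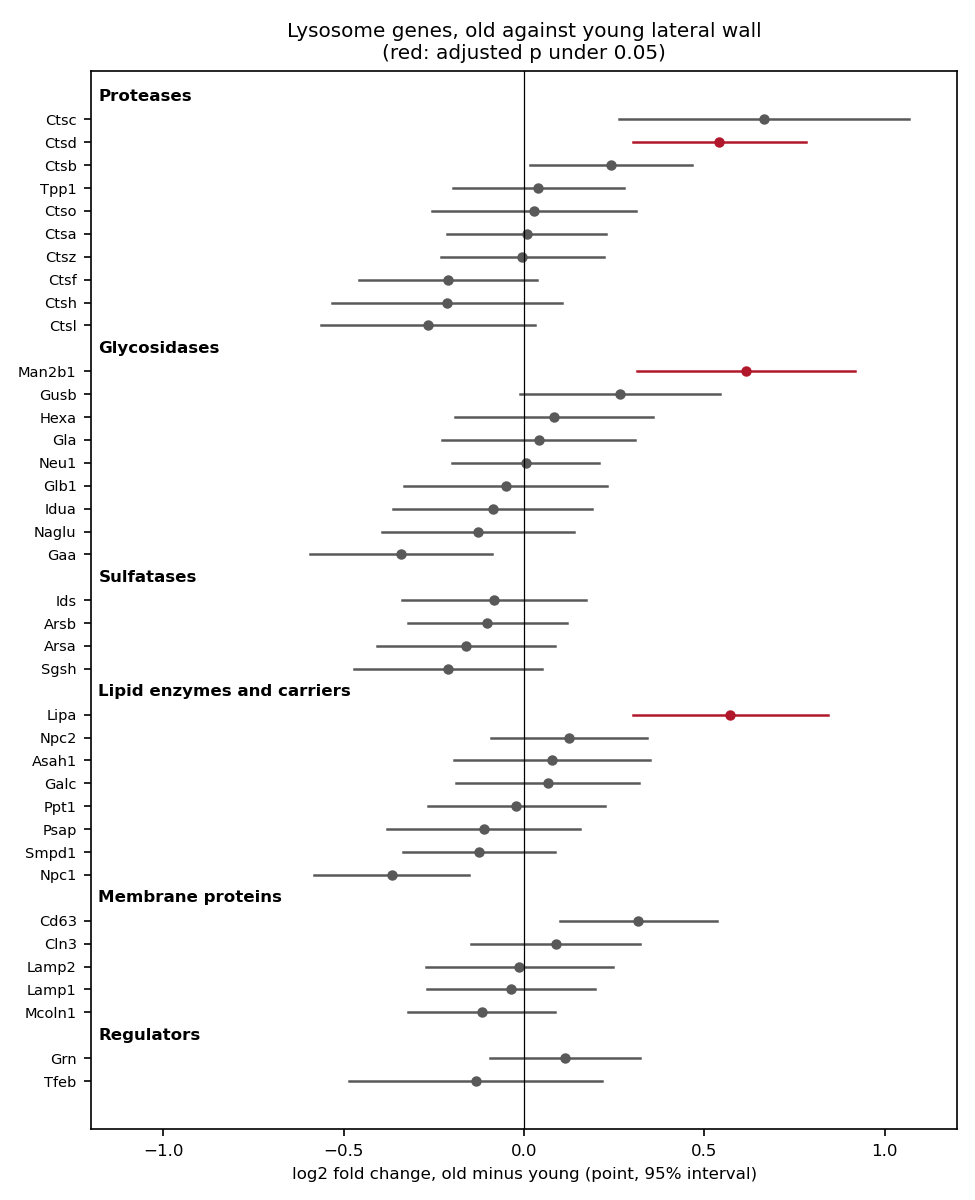
Log2 fold change of each of the 38 lysosome genes, old minus young, with 1 added to each value before the logarithm (points), with the 95% interval of the limma fit (lines), grouped by role and coloured red where the adjusted p is under 0.05. The 3 red genes lie between 0.54 and 0.61, and the lowest point is Npc1 at -0.37.

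The intervals were narrow enough to bound most changes. For 37 of the 38 members the 95% interval lay inside a 2-fold change in either direction, and for 33 it lay inside 1.5-fold. Ctsc was the exception at 2-fold, with an interval of 0.26 to 1.07 on the log2 scale. The half-widths ran from 0.20 to 0.40. Old and young values did not overlap in 12 members, 7 with old higher and 5 with old lower, where the values of 26.1% of all genes did not overlap (13.2% with old higher and 12.8% with old lower).

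Per kilobase of annotated exon, the levels of the members covered a wide range with the same genes at the top in both groups. Ctsd and Psap, the precursor of the saposins that help lipid enzymes reach their substrates, were first and second in old mice and stood in the other order in young mice. Ctsd had 30078 ± 1581 normalised read counts per kb in old and 20680 ± 1451 in young mice (SD, n = 3 each). Psap had 27595 ± 3527 in old and 29681 ± 206 in young mice. Lamp1, a glycoprotein of the lysosome membrane, had 15197 ± 1073 in old and 15572 ± 756 in young mice, and the cysteine protease gene Ctsb followed with 12915 ± 507 in old and 10927 ± 343 in young mice. At the low end, Galc, the galactosylceramidase gene, had 143 ± 18.6 in old and 136 ± 3.36 in young mice. With the length of the principal transcript in place of all exons, a choice added after the data were seen, the first 5 genes kept their places, but Lamp2 stood at rank 6 in place of 14 in old mice, Cd63 at 8 in place of 18 and Galc at 29 in place of 38.

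**Figure D2:**
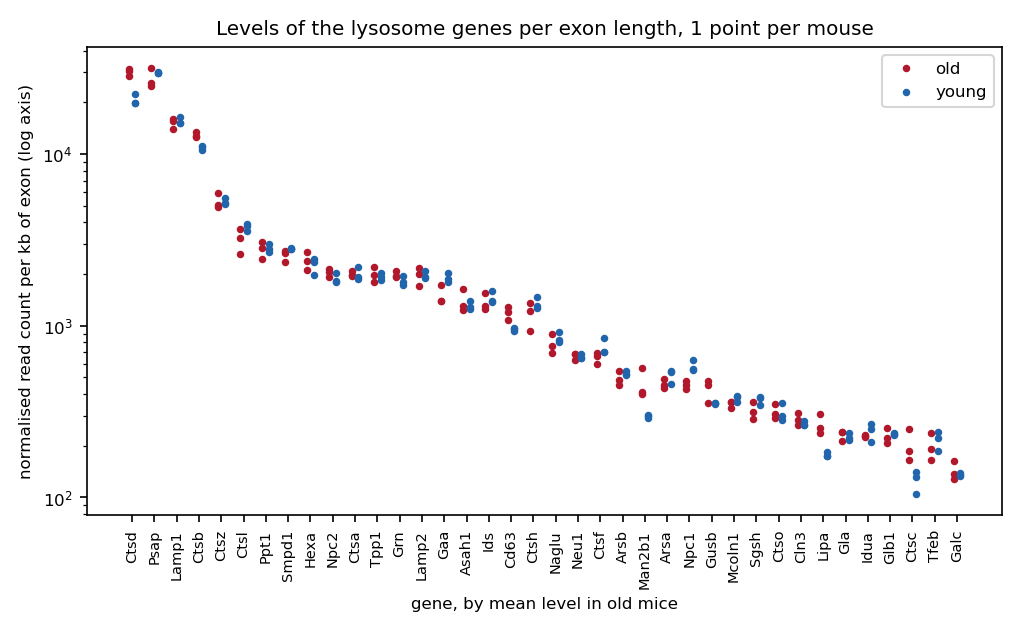
Normalised read count per kilobase of exon (log axis) of the 38 lysosome genes, 1 point per mouse, old in red to the left of young in blue, ordered by the mean level in old mice. The order runs from Ctsd (30078 in old) to Galc (143 in old). The points separate by group in 12 genes. Old is higher in 7 (Ctsb, Ctsc, Ctsd, Gusb, Man2b1, Lipa and Cd63) and lower in 5 (Ctsf, Gaa, Smpd1, Npc1 and Mcoln1).

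Among the 10 proteases, Ctsd rose and the others were not called by limma. Ctsd encodes cathepsin D, the main aspartic protease of lysosomes. Its normalised read counts were 71406, 66697 and 74034 in old replicates 1, 2 and 3, against 52549, 46865 and 46441 in young replicates 1, 2 and 3. Every old library was above every young one. The log2 fold change was 0.54 ± 0.11 (standard error, limma adjusted p = 0.0226). The gene lies on chromosome 7 from 142375911 to 142388038 (GRCm38, minus strand), and 34.4% of its annotated exon bases are shared with the model Gm49369 on the same strand, so some of its reads may be of that model. The call was lost without old replicate 1 (limma adjusted p = 0.0626), young replicate 2 (0.114) or young replicate 3 (0.133), and the range without 1 library was 0.0152 to 0.133.

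Cathepsins B and C were above the young range in every old library, without a limma call. Ctsb encodes the most abundant cysteine cathepsin here, an endopeptidase that also trims peptides from the carboxyl end. It had 81637, 76933 and 75868 normalised read counts in old replicates 1 to 3, against 67867, 66665 and 63828 in young replicates 1 to 3, a log2 fold change of 0.24 ± 0.10 (standard error, limma adjusted p = 0.207). Ctsc encodes dipeptidyl peptidase I, which activates the granule serine proteases of leukocytes. It had 1079, 1455 and 961 normalised read counts in old replicates 1 to 3, against 816, 608 and 762 in young replicates 1 to 3. Old replicate 2 was the highest of the 6 libraries. The log2 fold change of 0.67 ± 0.18 was the largest among the members but was not called (limma adjusted p = 0.0675, edgeR 0.0661), whereas DESeq2 called it (adjusted p = 0.00951).

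The remaining cathepsins and Tpp1 were on either side of 0. Ctsl, the gene of the endopeptidase cathepsin L, had 20996, 23753 and 16911 normalised read counts in old replicates 1 to 3, against 24864, 23202 and 25487 in young replicates 1 to 3. The groups overlapped through old replicate 2, and the log2 fold change was the lowest of the proteases, -0.27 ± 0.13 (standard error, limma adjusted p = 0.283). Of its annotated exon bases 26.8% also belong to the antisense model Gm47123, and without a stated strand setting those reads cannot be told apart. Ctsh and Ctsf, an aminopeptidase and a cysteine protease, each had a log2 fold change of -0.21. Ctsf did not overlap between the groups. Ctsa, Ctso, Ctsz and Tpp1 lay from -0.0045 to 0.04. Ctsa protects and activates beta-galactosidase and sialidase, and Tpp1 removes tripeptides from the amino end of proteins.

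Of the 9 glycosidases, Man2b1 rose and 8 were not called. Man2b1 encodes the lysosomal alpha-mannosidase, which takes mannose from the glycans of degraded glycoproteins. It had 3311, 3235 and 4541 normalised read counts in old replicates 1, 2 and 3, against 2339, 2416 and 2396 in young replicates 1, 2 and 3. The young libraries lay close together, and old replicate 3 was the highest. The log2 fold change was 0.61 ± 0.13 (standard error, limma adjusted p = 0.0327). Without old replicate 3 the call was kept at a log2 fold change of 0.46. It was lost without any 1 of the young replicates (limma adjusted p of 0.0908, 0.112 and 0.128 without young replicates 1, 2 and 3, and 0.0176 to 0.128 over all runs without 1 library). Man2b1 lies on chromosome 8 from 85083270 to 85098282 (GRCm38, plus strand).

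Among the other glycosidases, Gaa had the lowest fold change and Gusb the highest. Gaa, the acid alpha-glucosidase that breaks down glycogen, had 6667, 8275 and 6711 normalised read counts in old replicates 1 to 3, against 8968, 8627 and 9728 in young replicates 1 to 3. All old values were below all young values, and the log2 fold change was -0.34 ± 0.11 (standard error, limma adjusted p = 0.12). Without old replicate 2, limma called it lower (adjusted p = 0.0323, range without 1 library 0.0323 to 0.401). Gusb, the beta-glucuronidase gene, had 1626, 2057 and 2169 normalised read counts in old replicates 1 to 3, against 1595, 1621 and 1610 in young replicates 1 to 3. Old replicate 1 was just above the young libraries and the other old libraries were further above them, with a log2 fold change of 0.27 ± 0.12 (standard error, limma adjusted p = 0.251). Glb1, the beta-galactosidase whose activity is stained as a sign of senescence, averaged 685 ± 72.3 in old and 707 ± 7.86 in young mice (SD, n = 3 each), with a log2 fold change of -0.05 and a 95% interval of -0.33 to 0.23. Hexa, Gla, Neu1, Idua and Naglu had log2 fold changes from -0.13 to 0.08.

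All 4 sulfatases had negative log2 fold changes and none was called. They were -0.21 for Sgsh, -0.16 for Arsa, -0.10 for Arsb and -0.08 for Ids, the first and the last being enzymes of heparan sulfate breakdown and Arsa that of sulfatide. The old and young values of each overlapped, and the summed level of the 4 was 12304 to 13588 normalised read counts in old and 13604 to 14919 in young libraries.

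Lipid handling held both directions. Lipa encodes the acid lipase that frees cholesterol and fatty acids from lipoprotein esters. It had 1602, 1726 and 2080 normalised read counts in old replicates 1, 2 and 3, against 1179, 1250 and 1187 in young replicates 1, 2 and 3. All old libraries were above all young ones, with old replicate 3 the highest. The log2 fold change was 0.57 ± 0.12 (standard error, limma adjusted p = 0.0293). The call was lost without old replicate 3 (log2 fold change 0.46, limma adjusted p = 0.0579) and without young replicates 1, 2 or 3 (0.0759, 0.0929 and 0.128), and the range without 1 library was 0.0282 to 0.128. Lipa lies on chromosome 19 from 34492318 to 34527474 (GRCm38, minus strand).

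Npc1 and Npc2, the partners that pass freed cholesterol out of the lysosome, had fold changes of opposite sign. Npc1, the membrane transporter, had 4831, 5394 and 5126 normalised read counts in old replicates 1 to 3, against 6286, 7150 and 6381 in young replicates 1 to 3. Every old value was below every young value. The log2 fold change was -0.37 ± 0.10 (SE), which limma and edgeR did not call (adjusted p of 0.0619 and 0.0673) and DESeq2 did (adjusted p = 0.0117). Npc2, the soluble carrier, had 11252, 11679 and 10518 in old replicates 1 to 3, against 11053, 9772 and 9884 in young replicates 1 to 3, with overlapping groups and a log2 fold change of 0.12 (limma adjusted p = 0.513). The difference between Npc1 and Npc2 was not tested.

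**Figure D3:**
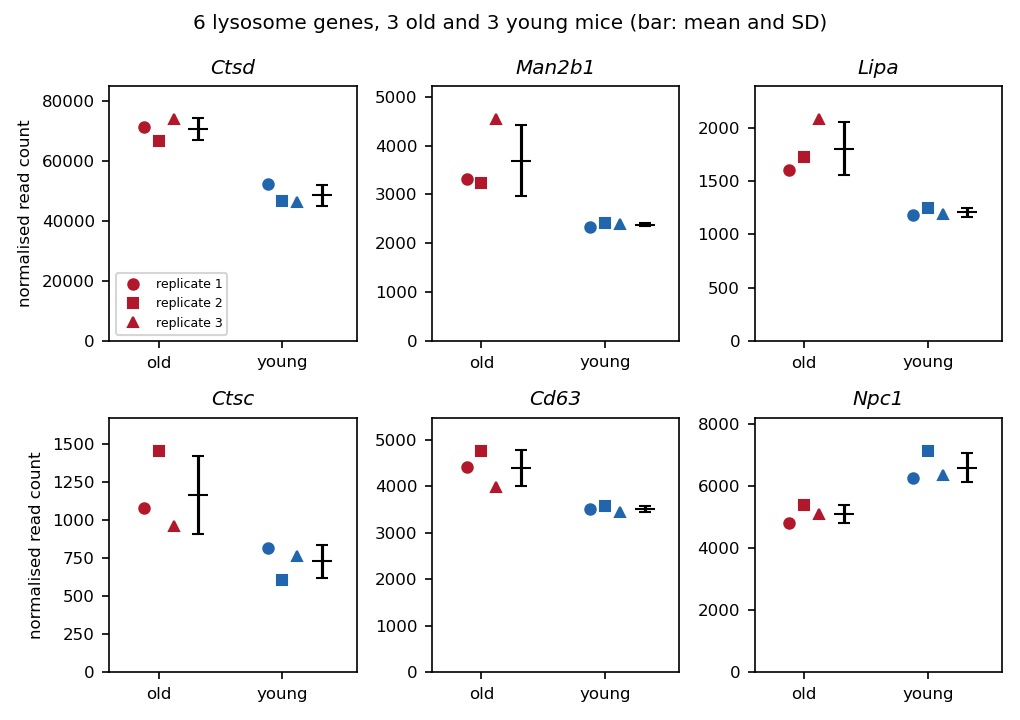
Normalised read counts of 6 lysosome genes in 3 old (red) and 3 young (blue) mice, with the replicate number as the marker shape and the mean and SD as a black bar beside the points. Ctsd, Man2b1, Lipa, Ctsc and Cd63 are higher in every old mouse than in any young one, and Npc1 is lower in every old mouse.

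The sphingolipid genes were not called. Psap had 71500, 68871 and 86792 normalised read counts in old replicates 1 to 3, against 82092, 81199 and 81041 in young replicates 1 to 3. Old replicate 3 was above the young libraries and the other old libraries below them, and the log2 fold change was -0.11 ± 0.12 (standard error, limma adjusted p = 0.642), with 0.10 after quantile normalisation. Smpd1, the acid sphingomyelinase gene, was lower in every old library, at a log2 fold change of -0.13 (limma adjusted p = 0.491). Asah1, Galc and Ppt1, which act on ceramide, galactosylceramide and fatty acids bound to cysteine, had log2 fold changes of 0.08, 0.07 and -0.02.

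The genes of the main glycoproteins of the lysosome membrane were not called. Lamp1 had 42786, 41779 and 37390 normalised read counts in old replicates 1 to 3, against 43988, 40449 and 40526 in young replicates 1 to 3. Its log2 fold change was -0.04, with a 95% interval of -0.27 to 0.20. Lamp2, which also serves as the receptor of chaperone-mediated autophagy, had 20808, 19026 and 16246 in old replicates 1 to 3, against 20036, 18028 and 18321 in young replicates 1 to 3, and a log2 fold change of -0.01 (-0.27 to 0.25). Both values are near 0, and with quantile normalisation they were 0.12 for Lamp1 and 0.06 for Lamp2.

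Cd63, a tetraspanin of late endosomes, lysosomes and exosomes, had 4422, 4766 and 3993 normalised read counts in old replicates 1 to 3, against 3524, 3586 and 3452 in young replicates 1 to 3. The groups did not overlap. The log2 fold change was 0.32 ± 0.10 (SE), not called by limma or edgeR (adjusted p of 0.0984 and 0.0811) and called by DESeq2 (adjusted p = 0.0423). Mcoln1, the calcium release channel of lysosomes, had 2513, 2706 and 2717 in old replicates 1 to 3, against 2920, 2737 and 2955 in young replicates 1 to 3. Its old values were all just below the young ones, with a log2 fold change of -0.12 (limma adjusted p = 0.509). Cln3, a membrane protein lost in juvenile Batten disease, had a log2 fold change of 0.09.

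Tfeb, the transcription factor that drives many lysosome genes, had 939 normalised read counts in old replicate 1, 1087 in old replicate 2 and 1344 in old replicate 3, against 1255, 1362 and 1062 in young replicates 1 to 3. The groups overlapped widely, and the log2 fold change was -0.13 with a 95% interval of -0.48 to 0.22. Grn, whose product supports hydrolase activity in lysosomes, had 6754, 7226 and 6682 in old replicates 1 to 3, against 6023, 6815 and 6269 in young replicates 1 to 3, a log2 fold change of 0.11 (-0.09 to 0.32). Transcript level says nothing of the nuclear localisation by which the activity of TFEB is mainly controlled.

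**Figure D4:**
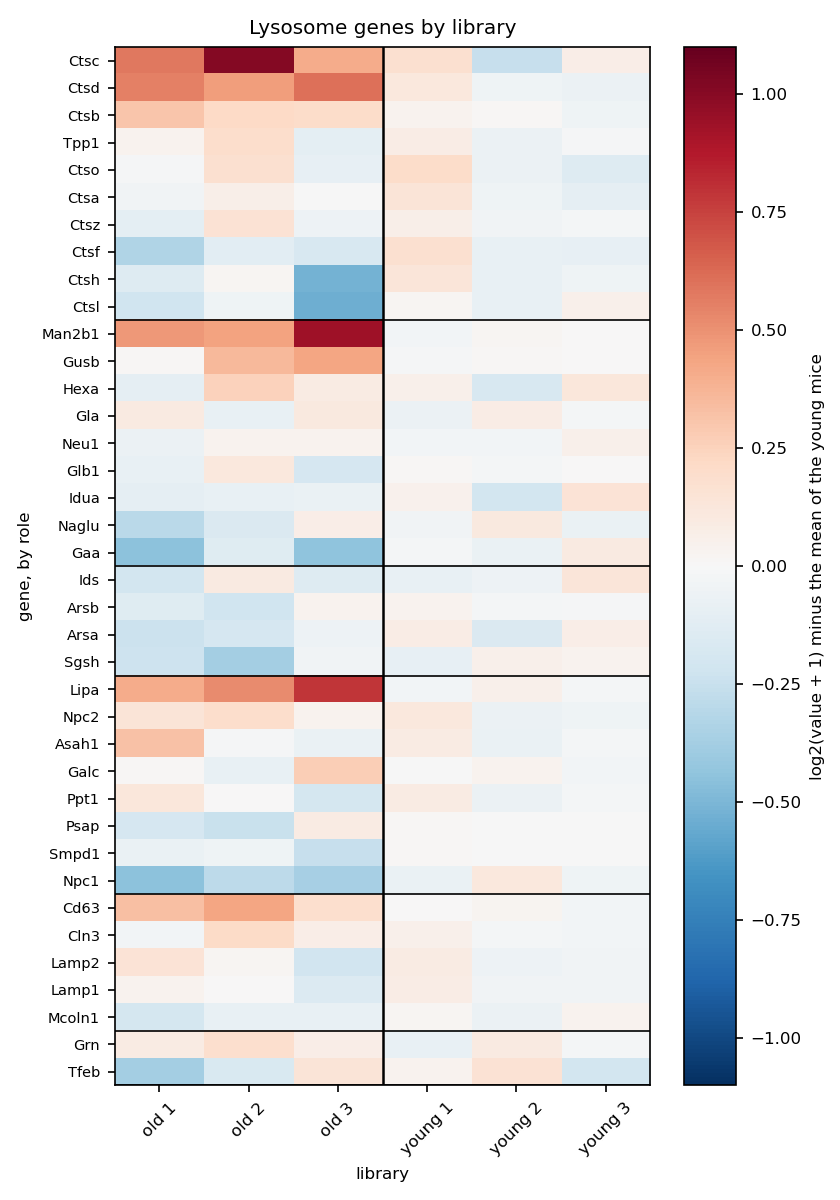
Each lysosome gene in each library as log2(value + 1) minus the mean of the young mice (red higher, blue lower), with genes grouped by role and old libraries left of the vertical line. Ctsd, Man2b1 and Lipa are red in all 3 old libraries, while Ctsl and Ctsh are lowest in old replicate 3.

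TFEB binds an E-box core, CACGTG, in the promoters of many lysosome genes, and the longer palindrome around it is known as the CLEAR element. RefSeq promoter windows (GRCm38.p6, 250 bases before to 50 after a start site) matched 34 of the 38 members. The core, which reads the same on both strands, was in a window of 13 of these (38.2%), against 1413 of 13143 genes with a window (10.8%). With T before and A after the core, it was found in 5 of the members (14.7%) and in 1.85% of the 13143 genes. The element with GT before and AC after was found in 1 member, Cln3 (2.94%), and in 0.639% of the 13143 genes, and each longer form holds the shorter ones. These are letter matches in short windows, and binding was not measured. Ctsa also holds the form with T and A, centred at -9 and 8 from a start site, and is not shown, nor is the match of Gla at -224. The 30 bases around a longer form in Ctsd, Cln3, Mcoln1 and Gla are shown, with 1 of the 4 cores of Lamp1, so that the flanks can be compared. The match is in capitals and each is read along the strand of its gene.
Ctsd, chr7:142387908-142387937, minus strand: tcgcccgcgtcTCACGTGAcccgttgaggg
Cln3, chr7:126583340-126583369, minus strand: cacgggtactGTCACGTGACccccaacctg
Mcoln1, chr8:3500462-3500491, plus strand: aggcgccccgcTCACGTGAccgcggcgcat
Gla, chrX:134601182-134601211, minus strand: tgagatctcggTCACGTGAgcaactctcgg
Lamp1, chr8:13159088-13159117, plus strand: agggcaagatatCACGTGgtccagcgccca

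Of the 13 members with the core, 1 rose (Ctsd), and their median log2 fold change was -0.12, from -0.34 to 0.54. Of the 21 with a window and no core, 2 rose (Man2b1 and Lipa), and their median was 0.03, from -0.13 to 0.67. The window of Ctsd thus holds the core, while those of the other members that rose do not. The 250 bases before the RefSeq start of Man2b1 and Lipa are given because these genes rose without it, in lower case throughout since no core is present.
Man2b1, chr8:85083019-85083268, plus strand: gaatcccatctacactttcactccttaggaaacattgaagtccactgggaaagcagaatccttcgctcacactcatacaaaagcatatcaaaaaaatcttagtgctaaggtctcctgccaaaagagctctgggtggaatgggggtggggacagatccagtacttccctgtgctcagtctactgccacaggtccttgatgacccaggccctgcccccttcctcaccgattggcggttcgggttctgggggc
Lipa, chr19:34527475-34527724, minus strand: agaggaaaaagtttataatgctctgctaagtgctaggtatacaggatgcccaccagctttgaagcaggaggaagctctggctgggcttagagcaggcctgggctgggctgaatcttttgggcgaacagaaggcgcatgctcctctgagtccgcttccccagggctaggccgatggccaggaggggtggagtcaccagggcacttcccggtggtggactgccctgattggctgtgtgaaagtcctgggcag

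Other genes of the pathway were read from a list of 94 that does not overlap the 38, of which 93 were in the table. Of these, 8 rose and 2 fell by limma, with a median log2 fold change of 0.05, where limma called 2.71% of all genes higher and 2.55% lower. At an unadjusted p under 0.05, 15 of the 93 were higher and 8 lower, where 1842 of all 17091 genes were higher and 1805 lower. In the group of other hydrolases and their cofactors and inhibitors, 5 of 25 rose and 1 fell. Ctss, a cathepsin of antigen-presenting cells, had a log2 fold change of 1.90 and Lyz2, the lysozyme of myeloid cells, one of 3.09. Acp5, the acid phosphatase of osteoclasts and activated macrophages, had 2.01, and Ctsw, a cathepsin of cytotoxic lymphocytes, had 2.29 from 33.9 to 54.8 normalised read counts in old and 3.11 to 11.5 in young libraries. The limma call of Ctsw was kept only without old replicate 2 among the runs without 1 library (adjusted p 0.0477 to 0.0974). Ctsk, the collagen-cleaving cathepsin of osteoclasts and fibroblasts, fell to 713 ± 57.8 normalised read counts in old mice, against 1053 ± 37.1 in young mice (SD, n = 3 each), a log2 fold change of -0.56 ± 0.12 (standard error, limma adjusted p = 0.0268, and 0.0199 to 0.114 without 1 library). The call of Ctsk was kept without old replicate 2 and lost without any other library.

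Of 18 other membrane proteins of lysosomes, 2 rose, Cd68 (log2 fold change 2.15) and Laptm5 (0.94), both of which are typical of blood-derived cells. Laptm5 lost its call without young replicates 1, 2 or 3 (limma adjusted p of 0.0814, 0.106 and 0.114). Of 23 measured proton pump subunits and accessory proteins, 1 rose and 1 fell, and the median was 0.08. The one that rose was Atp6v0d2, a subunit of osteoclasts and macrophages, with 279, 470 and 854 recovered reads in old replicates 1 to 3 against 5, 4 and 3 in young replicates 1 to 3. The one that fell was Atp6v0a4, with 1, 12 and 0 reads in old replicates 1 to 3 against 44, 27 and 30 in young replicates 1 to 3, and edgeR did not call it (adjusted p = 0.0783) while DESeq2 did (0.0171). Its limma call was kept only without old replicate 2 among the runs without 1 library (adjusted p 0.0023 to 0.15). None of 13 genes for enzyme sorting was called by limma, edgeR or DESeq2, with 1 higher and 2 lower at an unadjusted p under 0.05. The mannose 6-phosphate receptor genes M6pr and Igf2r differed by 0.04 (95% interval -0.17 to 0.26) and 0.0079 (-0.28 to 0.30) on the log2 scale. Of 14 genes of the MiT/TFE family and of mTORC1 control at the lysosome, limma and edgeR called 0 and DESeq2 called 1, Mitf, with 2 higher and 1 lower at an unadjusted p under 0.05 in limma. Mitf, which is also the regulator of melanocyte-derived intermediate cells, had a log2 fold change of 0.56 ± 0.15 (standard error, limma adjusted p = 0.0746, DESeq2 0.0198), and Tfe3 had -0.35 ± 0.11 (limma adjusted p = 0.109, DESeq2 0.0538).

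**Figure D5:**
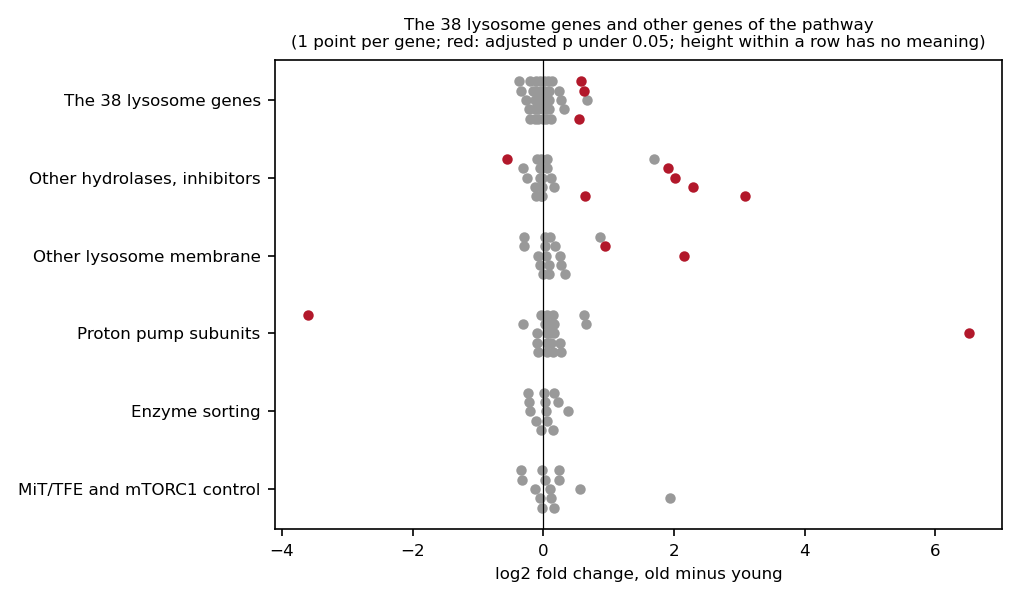
Log2 fold change, old minus young, of the 38 lysosome genes and of 5 other groups of the pathway, 1 point per gene, red where the limma adjusted p is under 0.05, with the vertical place inside a row used only to separate points. The 38 genes lie between -0.37 and 0.67, while single genes of the other hydrolases, membrane proteins and pump subunits reach 3.09, 2.15 and 6.51. The lowest points of these groups are -0.56, -0.29 and -3.60, the last being Atp6v0a4. In the group of MiT/TFE and mTORC1 control the highest point is 1.93, which limma did not call.

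Markers of other cells moved with age in the same libraries. For the unadjusted counts below, limma had 1842 of all 17091 genes higher and 1805 lower at an unadjusted p under 0.05. Of 12 macrophage markers, 7 rose and 0 fell by limma (7 and 0 by edgeR, 8 and 0 by DESeq2, and 9 and 0 at an unadjusted p under 0.05), and their summed level was 6562, 5707 and 7979 normalised read counts in old replicates 1, 2 and 3, against 4253, 3654 and 3831 in young replicates 1, 2 and 3. The 12 log2 fold changes had a median of 1.14, from -0.29 to 2.13, with 11 above 0 and 1 below. Csf1r, the receptor that macrophages need to survive, averaged 1922 ± 347 in old and 1725 ± 142 in young mice. No marker of this list was at 0 in any library. Old replicate 3 had the highest macrophage sum and the highest Ctsd, Man2b1 and Lipa of the old libraries. It also had the highest old sum of each other marker list except skeletal muscle and ligament, where its sum was the lowest. The relation of this order to any cell type was not tested. Old replicate 2 had the lowest macrophage sum, the lowest Ctsd and Man2b1 of the old libraries, and the highest Ctsc and Cd63. Lipa was lowest in old replicate 1 among the old libraries. Of 10 neutrophil and marrow markers, limma called 2 higher and 0 lower, edgeR 8 and 0, and DESeq2 10 and 0, with 10 higher at an unadjusted p under 0.05 and a median log2 fold change of 2.95. They summed to 776 to 10318 in old and 337 to 516 in young libraries. Of 6 osteoclast markers tested, which include Acp5, Ctsk and Atp6v0d2, 2 rose and 1 fell, with sums of 1622 to 3103 in old and 1237 to 1353 in young libraries. Of 8 neuron markers limma called 1 higher and 1 lower, edgeR 2 and 1, and DESeq2 6 and 1. At an unadjusted p under 0.05 in limma, 4 were higher and 1 lower, and their median log2 fold change was 2.64. They summed to 652, 4980 and 5829 in old replicates 1 to 3 and to 399 to 760 in young libraries. Of 9 erythroid markers limma called 0, edgeR 3 higher and DESeq2 7 higher, with 8 higher and 0 lower at an unadjusted p under 0.05 and sums of 7132 to 43325 in old and 2892 to 4967 in young libraries. Of 6 B and plasma cell markers 2 rose (218 to 525 in old and 57.0 to 70.3 in young), of 6 T and NK cell markers tested 2 rose (277 to 980 in old and 125 to 137 in young), and of 7 markers of myelinating glia 1 rose (27852 to 39675 in old and 22339 to 27337 in young). Bone and skeletal muscle markers went the other way. Of 8 bone markers 5 fell and 0 rose, with sums of 3044 to 4415 in old and 5211 to 9057 in young libraries, and of 7 muscle markers 2 fell and 0 rose, with mean sums of 127 ± 37.5 in old and 409 ± 105 in young libraries (SD, n = 3 each). Of 6 hair cell markers limma, edgeR and DESeq2 called 0, with 1 lower at an unadjusted p under 0.05, and the sums overlapped. The part of these cells in the rises of Ctsd, Man2b1 and Lipa was not tested.

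The 38 genes together took 1.19% to 1.22% of all normalised read counts in old and 1.06% to 1.09% in young libraries. In absolute terms their sum was 441399 ± 1706 in old and 419145 ± 12406 in young mice (SD, n = 3 each), while the sum over all genes was 36644604 ± 472041 in old and 39039119 ± 636263 in young mice, so both terms of the share moved. Ctsd alone averaged 70712 ± 3717 in old and 48618 ± 3411 in young mice, a rise nearly as large as that of the 38-gene sum. Of the 38 log2 fold changes, 18 were above 0 and 20 below. The proteases summed to 208126 ± 4718 in old and 178487 ± 7988 in young mice. They include Ctsd, and also Ctsb, which averaged 78146 ± 3070 in old and 66120 ± 2074 in young mice. Of the 10 protease log2 fold changes, 6 were above 0 and 4 below. The lipid enzymes and carriers summed to 119522 ± 7627 in old and 125728 ± 1868 in young mice. The sulfatases summed to 13077 ± 681 in old and 14110 ± 708 in young mice, and the regulators to 8011 ± 310 in old and 7595 ± 505 in young mice. The glycosidases summed to 24617 ± 1915 in old and 24825 ± 1034 in young mice, and the membrane proteins to 68046 ± 5335 in old and 68401 ± 3202 in young mice.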

How the data were processed

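RNA of 6 libraries, 1 per mouse, was sequenced by the authors. Per the labels' protocols, the miRNeasy Mini Kit was used for total RNA and a TruSeq RNA kit for the libraries, and degraded samples were left out. The submitters' processing notes list Partek, TopHat2, DESeq2 and mm10 with no role or version. The annotation and strand setting are not given in the sources used here. One table of signal values was deposited by the authors, gene read counts divided by a size factor per library. Division by the smallest step of a library gave whole numbers (to 0.1) for 99.9% of values, and for 100% of those under 10000. The deposited table also holds the authors' p-value, adjusted p-value and a fold change score per gene.

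Group differences were fitted with limma 3.58.1 (trend, robust, R 4.3.3) on log2(value + 1) over 17091 genes, with Benjamini-Hochberg adjustment and a threshold of 0.05. This scale understates changes of genes with few reads. edgeR 4.0.16 and DESeq2 1.42.0 were run on the recovered reads (edgeR called 873 genes, DESeq2 1819), and the fits were checked on simulated data. Per-length levels used the union of exons of GENCODE M21 on GRCm38, which mm10 names, and all 38 symbols matched. Exon bases of 17 members are shared with another annotated gene, for 15 of them on the opposite strand, and without a known strand setting such reads are uncertain. Each sample is a separate mouse, and counting error is small against the spread between mice. The replicate numbers are not known to pair mice.

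The 38 members and the other lists were chosen with earlier results of these data known. The rule for named genes took every member called by limma, edgeR or DESeq2, 12 members in every case (Ctsd, Ctsb, Ctsl, Psap, Lamp1, Lamp2, Cd63, Npc1, Npc2, Mcoln1, Grn and Tfeb) and the extremes of each role, and of the other pathway genes those called and some set ones, of which 1 is not reported here. Full values of Gaa and Gusb were added after their values were seen. Alternatives were quantile normalisation, no variance trend, leaving out genes with a mean under 10, adding 0.1 or 10, a block for the replicate number, each library left out, other tools and the authors' adjusted p-values.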

Additional observations from a re-analysis of the deposited data

How the results depend on the processing

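Over all genes, limma called 463 higher and 435 lower. The counts were 194 higher and 113 lower without the variance trend, 230 and 176 with the replicate number as a block, 976 and 843 by DESeq2, and 975 and 843 in the authors' deposited table. At an unadjusted p under 0.05, limma had 1646 genes higher and 1499 lower without the trend, and 1609 and 1552 with the block. Without 1 library the counts ran from 139 to 554 higher and from 91 to 580 lower. Of the 38 lysosome genes, 3 were called higher (Ctsd, Man2b1 and Lipa) with quantile normalisation, a mean of at least 10, either other pseudocount and all 3 edgeR fits, 0 without the trend (6 at an unadjusted p under 0.05), 0 with the replicate block (5 at an unadjusted p under 0.05), 5 by DESeq2 and in the authors' deposited table (with Ctsc and Cd63), and 0 to 3 without 1 library. With the replicate block, the limma adjusted p was 0.065 for Ctsd, 0.061 for Man2b1 and 0.072 for Lipa at the same fold changes. Same-numbered old and young mice deviated with correlations of -0.24, -0.10 and -0.09, and other old and young mice with -0.15 to 0.23. No positive correlation by number was seen, but with 3 mice in each group these values cannot exclude shared handling by number. Lower calls were 0 by limma, 1 by DESeq2 and in the authors' deposited table (Npc1), and 0 to 1 without 1 library (Gaa without old replicate 2). The median log2 fold change of the 38 was 0.066 with quantile normalisation, against -0.01, and -0.04 to 0.02 without 1 library.

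Of the other pathway genes, 8 higher and 2 lower were called by limma. There were 5 higher and 0 lower without the trend (5 lower at an unadjusted p under 0.05), 0 lower with the replicate block (6 lower at an unadjusted p under 0.05), and 1 lower with a mean of at least 10, with a pseudocount of 0.1 and in each of the 3 edgeR fits. Without 1 library, 5 to 9 were called higher and 0 to 2 lower. Among genes near 0, Psap changed sign with quantile normalisation (0.10). Lamp1 did so with quantile normalisation (0.12), without old replicate 3 and without young replicate 1 (0.0034), with a range of -0.075 to 0.023 without 1 library. Lamp2 did so with quantile normalisation (0.060), without old replicate 3, without young replicate 1 and with edgeR and TMM (0.0039), with a range of -0.095 to 0.084 without 1 library. None of these values was called. The cause of these changes was not tested. Ctsd, Man2b1 and Lipa kept a log2 fold change above 0 under every alternative listed, while their calls were lost under some of them, as given above.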

Other observations

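Within the old group, the spread of the lysosome genes was wider than within the young group, as it was for other genes. Across genes, the log2 SD had a median of 0.145 among old and 0.0786 among young libraries for the 38 genes, and 0.177 among old and 0.136 among young libraries for the 13308 genes with a mean of at least 50. Old replicate 1 was the lowest old library in 16 of the 38 genes, old replicate 3 in 15 and old replicate 2 in 7, and old replicate 2 was the highest in 18. Asah1, the acid ceramidase gene, had 5563 normalised read counts in old replicate 1, 4403 in old replicate 2 and 4217 in old replicate 3, against 4230 to 4743 in young libraries. Idua, the alpha-iduronidase gene, had 950 to 968 in old mice, against 888 to 1132 in young mice.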
